A study of Equus caballus with 24 samples.

Results

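Gene expression in the juvenile long bone epiphysis, the growing end of a long bone, was compared between Debao ponies (DPs), a small breed, and Mongolian horses (MHs), a taller one. The comparison used 6 of the 24 RNA-seq libraries of the series, 3 of juvenile DPs (DPLBJ) and 3 of juvenile MHs (MHLBJ), and all genes of the count table. Of 24232 genes, 13755 had enough reads and were tested, 12232 of them with a symbol of their own. All animals were females killed at a slaughterhouse. The 6 adult libraries of the same bone region, 3 of DPs (DPLBA) and 3 of MHs (MHLBA), served as an independent set of animals. Each tissue sample was ground to powder, so its library mixed whatever cartilage, bone, marrow and vessels that sample held. The shares of these tissues in each sample are not given in the sources used here. The labels name neither the bone nor the limb, and everything else that differed between the breeds, such as husbandry and the place of sampling, cannot be told apart from breed. A lower level of a gene in these bulk samples can mean fewer cells of a type or less RNA per cell, and the data do not separate these readings.

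An epiphysis grows through cartilage. Chondrocytes divide, lay down a matrix of collagen II and aggrecan, enlarge and are replaced by bone that osteoblasts form and osteoclasts resorb. The marrow between the bone trabeculae makes blood cells in young animals and fills with fat cells as it matures. These processes give the gene lists used here, which hold the markers of each cell type and of general processes such as cell division.

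The libraries held 12103499 to 22317330 reads on genes. Levels are given as CPM (a gene's reads scaled to a fixed library total) after TMM scaling, in the order of replicates 1, 2 and 3, and the log2FC is the log2 of the fold change, DPs minus MHs, as edgeR fitted it. The DP libraries were not alike. Summed over 22 genes of cartilage matrix, the level was 3596, 8412 and 33072 CPM in DPLBJ and 243, 465 and 277 CPM in MHLBJ. Summed over 28 genes of red cell precursors it was 153, 9360.2 and 5987 CPM in DPLBJ and 185, 147 and 201 CPM in MHLBJ. In these sums DPLBJ replicate 1 thus stood above the MHs for cartilage matrix but among them for red cell genes. In that library HBB (beta globin) and ALAS2 (heme synthesis) had 0 reads. COL2A1, the collagen of cartilage, had 5.96, 4851 and 11883 CPM in DPLBJ and 1.79, 6.29 and 3.21 CPM in MHLBJ. For that cartilage gene DPLBJ replicate 1 lay among the MHs. The main counts are therefore also given without DPLBJ replicate 1.

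**Figure D1:**
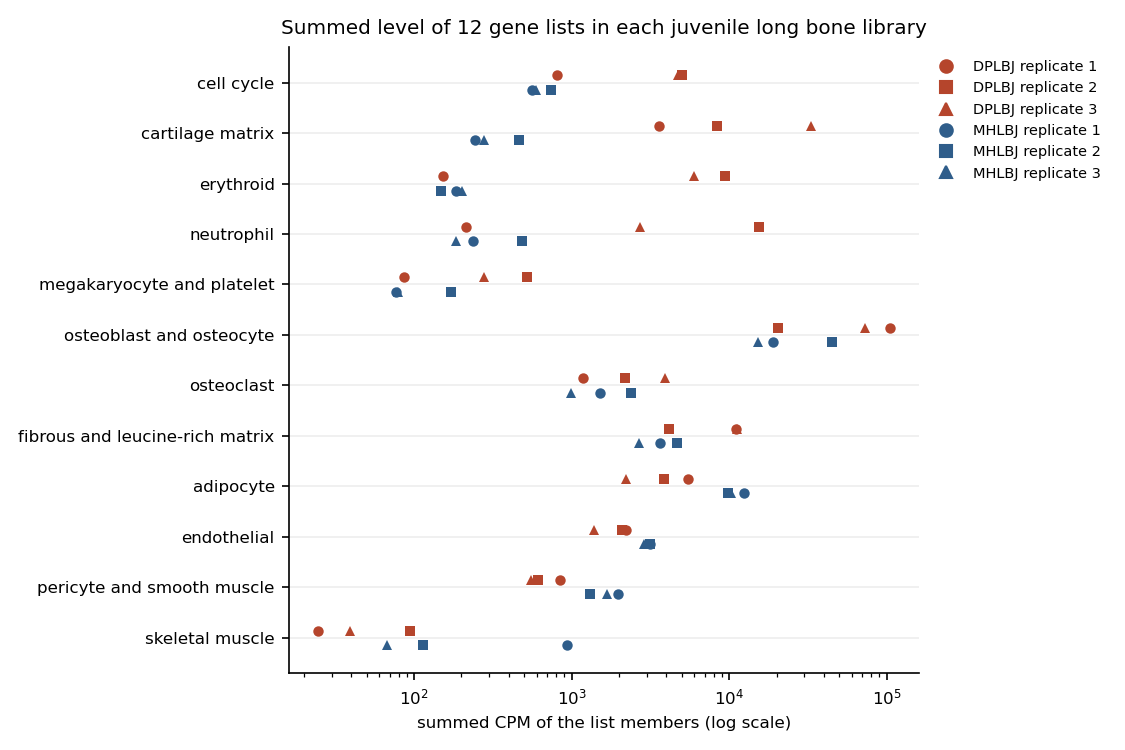
Summed CPM of the members of 12 gene lists (log scale) in each of the 6 juvenile long bone libraries, DPs in red and MHs in blue. For red cell precursors DPLBJ replicate 1, at 153 CPM, lies among the MHs, while for fat cells all 3 DPs lie below all 3 MHs.

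Differentially expressed genes (DEGs) had, before adjustment, P under 0.05 together with an over 2-fold change in edgeR's quasi-likelihood test. Of the tested genes 1146 (8.33%) were DEGs higher in DPs and 753 (5.47%) were DEGs lower in DPs. List counts from the full set of juvenile libraries are to be read against these shares. None had an adjusted p under 0.05, while 2450 genes had an unadjusted P under 0.05 and DESeq2 gave 1273 genes with an adjusted p under 0.05 and an over 2-fold change. The adjusted p of the DEGs lay between 0.0958 and 0.281, and each adjusted p given here comes from edgeR's test over all 13755 genes. With no TMM scaling the balance turned to 851 higher and 1152 lower, while the median of all genes moved by -0.22 on the log2 scale. With limma on log2(RPKM + 1) it was 386 higher and 850 lower. Every DP library lay above every MH library for 1333 genes (9.69%) and below for 1654 (12%). Among the DEGs this held for 619 of 1146 higher and 687 of 753 lower genes.

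Without DPLBJ replicate 1 the test gave 1839 DEGs higher in DPs (12.8% of 14397 genes) and 1248 lower (8.67%), and without MHLBJ replicate 3 it gave 674 higher and 520 lower. The shares of all genes called higher and lower were 7.28% and 7.21% without DPLBJ replicate 2, 6.36% and 3.94% without DPLBJ replicate 3 and 5.12% and 4.02% without MHLBJ replicate 1. They were 6.33% and 5.83% without MHLBJ replicate 2, 4.82% and 3.72% without MHLBJ replicate 3 and 3.11% and 6.85% with limma on log2(RPKM + 1), and list counts from those fits are to be read against them. Of the DEGs, 414 higher and 360 lower genes were also called in each of the 6 fits that left out 1 library. The genes named in the next paragraphs, 12 higher and 11 lower in DPs, are among those with the smallest P in each direction whose libraries did not overlap between breeds and that the study itself does not name. All were called in each of those 6 fits.

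The 12 genes higher in DPs were BMPER, HIST1H1C, CKAP4, ITM2C, ICAM5, PYCR1, LOXL3, CPZ, SNX22, IQGAP3, TCF3 and NUCB2. BMPER, which encodes a secreted protein that binds bone morphogenetic proteins (BMPs), had 5.96, 9.17 and 8.88 CPM in DPLBJ and 0.447, 0.758 and 0.279 CPM in MHLBJ. The lowest DP was 5.96 CPM and the highest MH 0.758 CPM, and the log2FC was 3.99 (SE 0.54, adjusted p = 0.136). CPZ, a carboxypeptidase of the extracellular matrix, had 87.5, 25.0 and 47.7 CPM against 3.88, 8.65 and 4.65 CPM, with a log2FC of 3.21 (SE 0.56, adjusted p = 0.136). Its highest level was in DPLBJ replicate 1, the library low in red cell genes. LOXL3, which cross-links collagen, was 50.1 ± 14.6 CPM in DPLBJ and 15.1 ± 2.18 CPM in MHLBJ (SD, n = 3), with a log2FC of 1.73 (SE 0.30, adjusted p = 0.136). PYCR1, which makes proline, had 32.4, 14.0 and 36.6 CPM against 3.06, 5.44 and 4.09 CPM, with a log2FC of 2.72 (SE 0.46, adjusted p = 0.136). CKAP4, a membrane protein of the endoplasmic reticulum, was 164 ± 33.8 CPM in DPLBJ and 41.4 ± 10.2 CPM in MHLBJ (SD, n = 3), with a log2FC of 1.98 (SE 0.29, adjusted p = 0.136).

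Among the other 7 genes, HIST1H1C, a linker histone, had 10.3, 29.8 and 26.6 CPM in DPLBJ and 1.49, 2.14 and 1.72 CPM in MHLBJ, and IQGAP3, a scaffold protein of dividing cells, had 3.22, 32.5 and 19.9 CPM against 0.373, 0.714 and 0.279 CPM. For both, DPLBJ replicate 1 was the lowest DP and still lay above every MH. The membrane protein gene ITM2C (log2FC 1.77 (SE 0.28, adjusted p = 0.136)), the transcription factor gene TCF3 (1.54) and NUCB2 (1.76), which encodes a calcium-binding protein, were expressed in all 6 libraries. NUCB2 had 448, 295 and 263 CPM in DPLBJ and 78.7, 121 and 97.0 CPM in MHLBJ. ICAM5, an adhesion molecule, and SNX22, a sorting nexin, were nearly silent in MHs. ICAM5 had 57 reads in all DPs and 3 in all MHs, a ratio of 24.2 after scaling (95% exact interval 7.86 to 121.0). SNX22 had 51 reads in all DPs and 2 in all MHs, a ratio of 32.4 (8.53 to 275.0). These intervals cover counting error only. The low-count filter asks for 3 libraries with enough reads, and ICAM5 and SNX22 met it only through the DPs. Their calls therefore follow from the filter.

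The clearest differences in the data were 2 genes lower in DPs. ADAMTS12, a secreted metalloprotease that cuts cartilage oligomeric matrix protein, had 23.9, 24.7 and 16.0 CPM in DPLBJ and 151, 155 and 153 CPM in MHLBJ. The MHs were within a few CPM of each other and far above every DP. The log2FC was -2.83 (SE 0.26, adjusted p = 0.0958). PCDH9, a protocadherin, had 6.43, 4.87 and 5.22 CPM against 36.2, 40.2 and 36.7 CPM, with a log2FC of -2.78 (SE 0.27, adjusted p = 0.0958). No other gene had a lower adjusted p than these. EFNA1, a ligand of Eph receptors, was 20.1 ± 3.98 CPM in DPLBJ and 77.2 ± 3.93 CPM in MHLBJ (SD, n = 3), with a log2FC of -1.94 (SE 0.25, adjusted p = 0.136). BCL2, an inhibitor of apoptosis, was 21.7 ± 4.25 CPM in DPLBJ and 85.6 ± 16.9 CPM in MHLBJ (SD, n = 3), with a log2FC of -1.98 (SE 0.27, adjusted p = 0.136). TEAD1, a transcription factor of the Hippo pathway, was 14.7 ± 4.15 CPM in DPLBJ and 58.4 ± 5.80 CPM in MHLBJ (SD, n = 3), with a log2FC of -1.99 (SE 0.30, adjusted p = 0.136).

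LMOD1, an actin-binding protein of smooth muscle, had 54.3, 54.0 and 67.4 CPM in DPLBJ and 739, 463 and 334 CPM in MHLBJ. NOTCH4, a Notch receptor of endothelial cells, had 7.69, 6.98 and 5.27 CPM against 39.2, 23.8 and 28.4 CPM. The breeds did not overlap for either gene, and their log2FC values were -3.13 and -2.20. LIPE, the hormone-sensitive lipase of fat cells, had 81.2, 85.4 and 30.9 CPM against 568, 496 and 505 CPM, with a log2FC of -2.99 (SE 0.43, adjusted p = 0.136). DUSP4, a phosphatase that inactivates MAP kinases, had 2.82, 1.75 and 1.51 CPM against 32.6, 12.9 and 24.1 CPM (-3.52). RASSF4 (-2.64) and KIAA1244 (-2.82) were lower too.

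**Figure D2:**
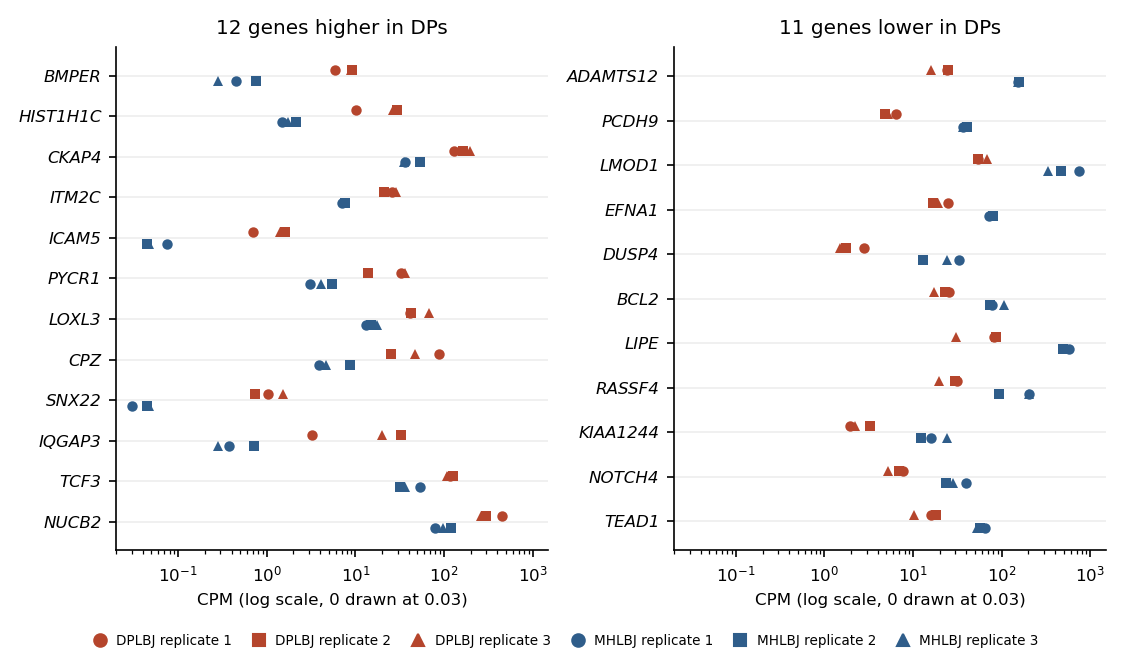
CPM (log scale) in each juvenile library of the genes with the smallest P, 12 higher in DPs and 11 lower in DPs, among genes that the study does not name and whose breeds do not overlap. ADAMTS12 lies at 151, 155 and 153 CPM in the MHs (blue) and at 23.9, 24.7 and 16.0 CPM in the DPs (red).

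Genes of DNA replication and mitosis were higher in DPs almost throughout. Of 42 tested members 39 were DEGs higher in DPs and 0 lower, against 8.33% and 5.47% of all genes, and all 42 had a positive log2FC with a median of 3.77, against 0.05 for all genes. CCNB1, the cyclin of entry into mitosis, had 5.02, 50.0 and 51.4 CPM in DPLBJ and 1.19, 2.19 and 1.02 CPM in MHLBJ, with a log2FC of 4.58 (SE 0.90, adjusted p = 0.136). KIF23, a kinesin of cell cleavage, had 12.3, 64.0 and 93.9 CPM against 2.83, 4.77 and 3.58 CPM (3.92), and the spindle genes DLGAP5 (5.38) and NUSAP1 (3.14) followed. In each of these 4 genes DPLBJ replicate 1 was the lowest DP and above every MH. The size differed within the list, from 0.67 to 5.55. PCNA, the DNA polymerase clamp, had 43.1, 145 and 171 CPM against 51.7, 48.9 and 57.1 CPM (1.19), and its lowest DP was DPLBJ replicate 1, below every MH. In 30 of 42 members every DP lay above every MH. Without DPLBJ replicate 1, 43 of 43 members were DEGs higher in DPs. Among them UBE2C was not tested with all 6 libraries, with 4, 336 and 269 reads in DPLBJ and 2, 9 and 0 in MHLBJ. It passed the filter there through the DPs, so its call follows from the filter. Summed over the list, the level was 803, 5047 and 4771 CPM in DPLBJ and 559.5, 743 and 598 CPM in MHLBJ. In the adults 32 of 42 members were DEGs higher in DPs, where 10.3% of all genes were.

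Of 31 replication-dependent histone genes, which are expressed in S phase and mostly lack poly(A) tails, 4 had enough reads for the test and 3 were DEGs higher in DPs. Beside HIST1H1C these were HIST1H2AC, with 4.78, 25.6 and 7.53 CPM in DPLBJ and 1.71, 2.50 and 2.28 CPM in MHLBJ, and HIST3H2A (2.005). These genes are near copies of each other, so reads may have been split among them. The other 27 had too few reads in at least 4 of the libraries.

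Genes of cartilage matrix were mostly higher in DPs. Of 18 tested genes of cartilage matrix 16 were DEGs higher in DPs and 0 lower, against 8.33% and 5.47% of all genes. The median log2FC was 5.94. Of the tested members 6 are collagens, a family that the study itself follows. Among the others, COMP (cartilage oligomeric matrix protein) had 39.9, 304 and 1276 CPM in DPLBJ and 3.21, 5.26 and 6.74 CPM in MHLBJ, with a log2FC of 6.73 (SE 1.28, adjusted p = 0.136). CHAD (chondroadherin) had 814, 143 and 674 CPM against 39.7, 79.4 and 40.7 CPM (3.35), HAPLN1, which links aggrecan to hyaluronan, 3.06, 48.4 and 473 against 0.596, 0.357 and 0.512 CPM (8.48), and LECT1 (chondromodulin) 22.6, 186 and 1556 against 7.23, 11.3 and 3.26 CPM (6.34).

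The 3 DPs were far apart in cartilage genes. ACAN, which encodes aggrecan, the main proteoglycan of cartilage, had 2.04, 409 and 1402 CPM in DPLBJ and 4.55, 0.625 and 3.77 CPM in MHLBJ, so that DPLBJ replicate 1 lay among the MHs. CHAD instead was highest in that library. In 11 of 18 members every DP still lay above every MH, against 9.69% of all genes. The median was 6.90 with 18 of 19 called without DPLBJ replicate 1, and 3.54 with 15 called without DPLBJ replicate 3, the library with the most cartilage RNA. CYTL1, not tested with all 6 libraries, entered the fit without DPLBJ replicate 1 through the DPs, so its call there follows from the filter. With limma 10 of 13 were called. Signals of the growth plate moved less as a group, with 5 of 19 members higher, 1 lower and a median of 0.57. Of all genes 8.33% were higher and 5.47% lower. PANX3, a channel of hypertrophic chondrocytes and osteoblasts, had 5.41, 3.13 and 18.5 CPM against 1.71, 2.05 and 0.977 CPM (2.51), and HHIP, an inhibitor of hedgehog signalling, 0.627, 3.49 and 16.2 against 0.149, 0.134 and 0.977 CPM (3.96). The count of higher growth plate signals was 3 of 19 without DPLBJ replicate 3, 3 of 20 without MHLBJ replicate 1, 2 of 20 without MHLBJ replicate 2 and 1 of 13 with limma. In these fits 6.36%, 5.12%, 6.33% and 3.11% of all genes were called higher. COL10A1, the collagen of hypertrophic chondrocytes, was not tested, since the filter asks for 3 libraries with enough reads. It had 0, 2106 and 57865 reads in DPLBJ and 1, 8 and 3 reads in MHLBJ. CYTL1, a secreted protein of chondrocytes, was left out in the same way, with 0, 878 and 660 reads against 0, 0 and 1 reads, while EPYC, MATN1 and UCMA were untested with at most 99 reads in a library.

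Bone-forming genes were higher in DPs in part. Of 23 markers of osteoblasts and osteocytes 9 were DEGs higher in DPs and 0 lower, against 8.33% and 5.47% of all genes, with a median log2FC of 1.097. PHOSPHO1, a phosphatase that starts mineralization, had 272, 46.1 and 162 CPM in DPLBJ and 10.1, 21.3 and 8.23 CPM in MHLBJ, with a log2FC of 3.59 (SE 0.71, adjusted p = 0.136). IFITM5, which osteoblasts express, had 26.3, 17.5 and 12.7 CPM against 6.64, 2.41 and 1.49 CPM (2.43). Both were without overlap, whereas for OMD (osteomodulin) the breeds overlapped, at 1765, 86.2 and 722 CPM against 113, 192 and 115 CPM (2.62). The osteocyte genes DMP1 (0.17), MEPE (-0.49) and SOST (-0.51) did not pass the threshold. DPLBJ replicate 1, the lowest of the DPs in the summed blood and cartilage genes, had the highest summed level of this list, 104928 CPM. Most of that sum came from a single member, COL1A2. The count of higher genes was 4 of 23 without DPLBJ replicate 1, 14 of 23 without DPLBJ replicate 2, 3 of 23 without MHLBJ replicate 1, 4 of 23 without MHLBJ replicate 3 and 3 of 22 with limma. Without DPLBJ replicate 1 a further 3 members were called lower in DPs.

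Small leucine-rich proteoglycans and fibrous matrix genes gave 8 of 17 members higher and 0 lower, against 8.33% and 5.47% of all genes. The median was 1.08. FMOD (fibromodulin) had 34.7, 119.5 and 390.0 CPM against 7.83, 7.27 and 4.19 CPM (4.82), PRELP 16.8, 23.1 and 143 against 8.35, 6.87 and 4.84 CPM (3.20) and DCN (decorin) 709.6, 297 and 543 against 135, 225 and 127 CPM (1.67). These 3 proteins bind collagen fibrils, and their breeds did not overlap. FN1 (fibronectin), at 2683, 875 and 4914 CPM against 611, 1034 and 495 CPM, overlapped in DPLBJ replicate 2. The count was 3 of 17 without MHLBJ replicate 1, 3 of 17 without MHLBJ replicate 3 and 4 of 16 with limma. Osteoclast genes showed little, with 2 of 17 higher, 0 lower and a median of 0.27. These 2 were CA2 (2.10) and TCIRG1 (1.69), which make and pump acid and are also used by other cells.

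Genes of developing blood cells were far higher in 2 of the 3 DPs. Of 20 tested genes of red cell precursors 17 were DEGs higher in DPs, where 8.33% of all genes were, with a median log2FC of 4.81. HEMGN, a nuclear protein of red cell precursors, had 0.549, 479 and 438 CPM in DPLBJ and 0.0746, 0.892 and 0.977 CPM in MHLBJ. KEL, a blood group antigen, had 0.235, 244 and 238 CPM against 0.373, 0.535 and 1.21 CPM, and ANK1, the ankyrin of the red cell membrane, 5.88, 175 and 149.9 against 1.94, 3.43 and 6.28 CPM. In all 3 genes DPLBJ replicate 1 lay below the highest MH. TRIM58, a ubiquitin ligase of maturing red cells, did not overlap, with 4.55, 28.2 and 49.9 CPM against 0.522, 1.12 and 1.26 CPM and a log2FC of 4.81 (SE 0.90, adjusted p = 0.136). Only 4 of 20 members had every DP above every MH. The 8 members left out by the filter, AHSP (the alpha globin chaperone) among them, had at least 30 reads in DPLBJ replicates 2 and 3 and more there than in any MH. AHSP had 2, 1233 and 1899 reads in DPLBJ and 0, 6 and 6 in MHLBJ. Without DPLBJ replicate 1, 28 were tested and 27 were called. The 8 added there passed the filter through the DPs, so their calls follow from the filter. The count was 13 of 20 without DPLBJ replicate 2, 13 of 20 without DPLBJ replicate 3 and 1 of 12 with limma, where the median was 0.99. In the adults 4 of 16 were DEGs higher in DPs, with a median of 0.76.

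Neutrophil genes followed with 18 of 19 members higher in DPs, against 8.33% of all genes, and a median of 4.78. But the number of members with every DP above every MH was 0. LTF, the lactoferrin of neutrophil granules, had 6.51, 3722 and 705 CPM in DPLBJ and 0, 37.8 and 1.02 CPM in MHLBJ. DPLBJ replicate 1 was below MHLBJ replicate 2 there, and DPLBJ replicate 2 was above the rest. The receptor gene CSF3R (4.78), the oxidase genes CYBB (3.34) and NCF1 (4.39) and PADI4 (4.82) were DEGs in the same direction. The call count was 4 of 19 without DPLBJ replicate 2, 4 of 19 without MHLBJ replicate 1, 5 of 19 without MHLBJ replicate 3 and 3 of 18 with limma. Platelet precursors gave 4 of 7 higher, against 8.33% of all genes. These were F13A1 (3.59), RAB27B (2.64), ITGA2B (2.07) and SELP (2.55), and in each of them every DP was above every MH. The other 8 of 15 were not tested, with 0 to 2 reads in DPLBJ replicate 1. Without DPLBJ replicate 2 the count was 2 of 7. TUBB1, the tubulin of platelets, had 0, 1989 and 499 reads in DPLBJ and 4, 2 and 6 in MHLBJ. Of 4 tested genes of mast cells, eosinophils and basophils 2 were higher, against 8.33% of all genes. EPX, the peroxidase of eosinophils, had 0.627, 567 and 329 CPM against 0.0746, 9.01 and 0.0930 CPM.

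Lymphocyte and macrophage genes, those of B cell precursors included, moved less. Of 17 B cell and plasma cell genes 3 were higher (CD79B 2.91, BTK 2.49, POU2AF1 2.79) and 1 was lower, EBF1 (-1.37), a transcription factor that fat and stromal cells also express. The higher count was 7 of 20 without DPLBJ replicate 1, 0 of 17 without DPLBJ replicate 2, 0 of 20 without MHLBJ replicate 1 and 0 of 11 with limma. CD79A and TNFRSF17, not tested with all 6 libraries, entered the fit without DPLBJ replicate 1 through the DPs, so a call of either there would follow from the filter. Of 25 T and NK cell genes only LCK, a kinase of T cell signalling, was a DEG, with 2.20, 7.86 and 7.80 CPM in DPLBJ and 12.4, 14.7 and 16.7 CPM in MHLBJ (-1.29). The median of that list was -0.63. Monocyte and macrophage genes gave 2 of 16 higher, AIF1 (2.66) and TYROBP (2.61), a share near the 8.33% of all genes. The count was 9 of 17 without DPLBJ replicate 1, 0 of 16 without DPLBJ replicate 2, 0 of 17 without MHLBJ replicate 1, 0 of 17 without MHLBJ replicate 2, 0 of 17 without MHLBJ replicate 3 and 0 of 16 with limma. CCR2 entered the fit without DPLBJ replicate 1 through the DPs in the same way. Among 10 genes of blood stem and progenitor cells, PROM1 was higher (2.17) and MECOM (-1.45) and KIT (-1.98) were lower.

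Genes of fat cells went the other way and did so in all 3 DPs. Of 25 tested members 18 were DEGs lower in DPs (5.47% of all genes were) and 2 higher, with a median log2FC of -1.59. In 15 members every DP lay below every MH, against 12% of all genes. For PLIN1 DPLBJ replicate 1 lay above MHLBJ replicate 2. LPL, which takes fatty acids from blood lipids, had 127, 119 and 113 CPM in DPLBJ and 412, 308 and 369 CPM in MHLBJ, with a log2FC of -1.60 (SE 0.24, adjusted p = 0.136). G0S2, an inhibitor of fat breakdown, had 242, 180.1 and 91.0 CPM against 1054, 1038 and 1514 CPM (-2.81), and CIDEA, a protein of the lipid droplet, 19.4, 11.3 and 4.57 against 113, 75.0 and 114 CPM (-3.10).

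PPARG, the transcription factor that drives fat cell formation, was lower (-1.42), as were the droplet coat gene PLIN1 (-1.59), the adiponectin gene ADIPOQ (-1.11) and FABP4 (-1.38), a fatty acid carrier that fat cells share with endothelial cells. FABP4 was among the 5 genes with the highest CPM in the MHs, at 6466, 5868 and 4899 CPM against 3259.7, 2126 and 1237 CPM in DPLBJ. DPLBJ replicate 1 had the highest summed level of fat genes among the DPs, 5450.4 CPM, and the lowest MH had 9840.1 CPM. The number of lower genes stayed between 13 and 18 whichever library was left out, and was 18 without DPLBJ replicate 1. The 2 higher members were RETN, with 0, 353 and 10.4 CPM against 0, 1.38 and 0 CPM, and RBP4 (1.41). RETN encodes resistin and was at 0 reads in DPLBJ replicate 1, where the blood cell genes were also low. In the adults 3 of 25 fat cell genes were lower and 1 was higher, near the 8.03% and 10.3% of all genes, with a median of -0.67. Adult LPL had a log2FC of 0.30 and adult FABP4 -0.16, neither past the threshold.

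**Figure D3:**
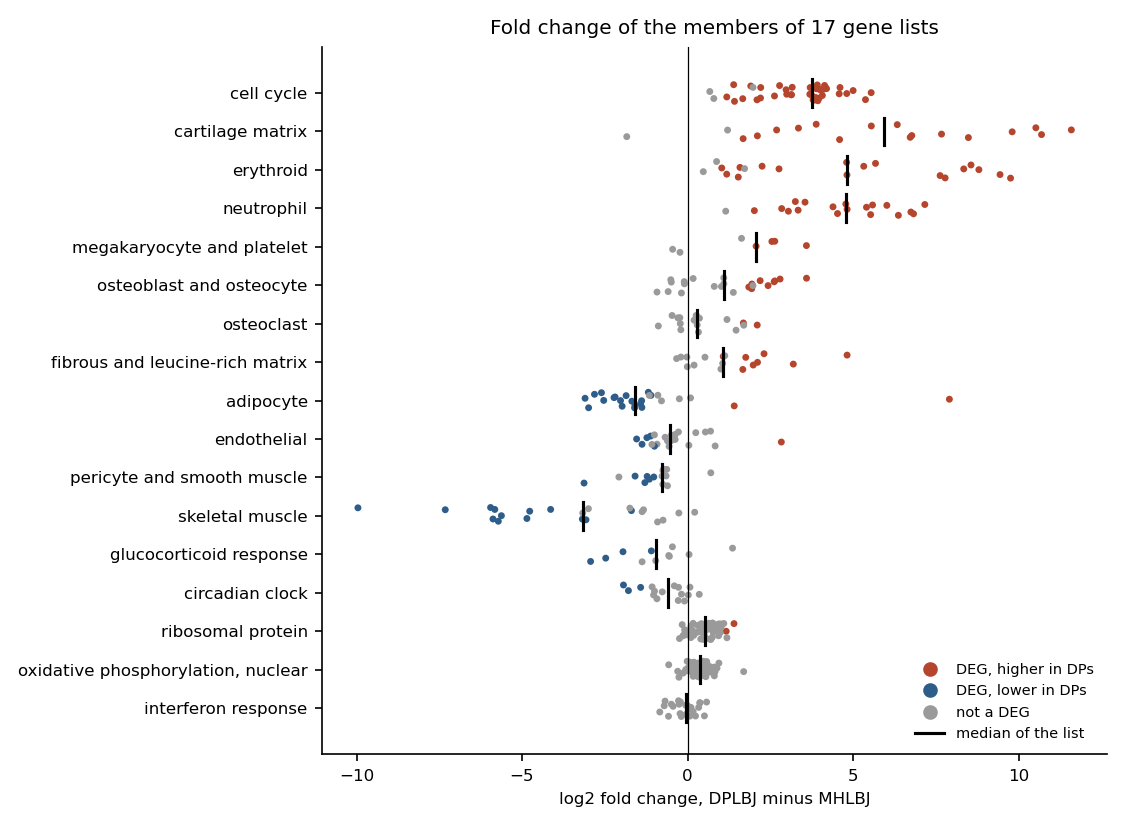
Log2 fold change (DPLBJ minus MHLBJ) of each tested member of 17 gene lists, with the list median as a black bar, DEGs in red or blue and other genes in grey. The medians run from -3.17 for skeletal muscle to 5.94 for cartilage matrix, with -0.05 for interferon genes.

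Some vessel and muscle genes were lower in DPs. Of 22 endothelial genes 5 were DEGs lower and 1 higher, against 5.47% and 8.33% of all genes. The junction genes PECAM1, with 496, 311 and 267 CPM in DPLBJ and 804, 747 and 776 CPM in MHLBJ, and CDH5 (-1.23) and the guidance receptor gene ROBO4 (-1.38) were lower without overlap. STAB2, a scavenger receptor of sinusoidal endothelium, was the higher one, with 17.5, 49.0 and 14.6 CPM against 5.74, 2.19 and 3.49 CPM (2.83). The lower count was 2 of 22 without DPLBJ replicate 3, 3 of 22 without MHLBJ replicate 1, 3 of 22 without MHLBJ replicate 3 and 8 of 22 with no TMM scaling. Of 15 pericyte and smooth muscle genes 6 were lower and 0 higher, against 5.47% and 8.33% of all genes, with a median of -0.77. Beside LMOD1 these included the adhesion molecule gene MCAM (-1.15), the channel gene KCNJ8 (-1.22) and the smooth muscle myosin gene MYH11 (-1.59). The count was 1 of 15 without DPLBJ replicate 3 and 3 of 15 without MHLBJ replicate 3. Of 12 marrow stroma genes CHRDL1, a BMP inhibitor (-1.68), and LEPR, the leptin receptor (-1.13), were lower and LPAR1 (1.16) was higher.

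Skeletal muscle genes gave 13 of 22 members lower in DPs and 0 higher, against 5.47% and 8.33% of all genes. Their median was -3.17. Their summed level was 24.6, 94.3 and 39.3 CPM in DPLBJ and 935, 114 and 67.1 CPM in MHLBJ, so MHLBJ replicate 1 held most of it. TTN (titin) had 3.14, 5.53 and 5.06 CPM against 90.4, 21.1 and 13.3 CPM (-3.18), TNNT3 (fast troponin T) 0.863, 0.218 and 0.430 against 33.6, 4.42 and 3.44 CPM (-4.77) and TNNC1 (slow troponin C) 0.627, 1.09 and 0.430 against 10.2, 6.02 and 1.86 CPM (-3.07). With limma the count was 4 of 12. Without MHLBJ replicate 1 it was 9 of 22, where 4.02% of all genes were called lower, and the median was -1.93. MYH2, a fast myosin heavy chain, had 2 reads in all DPs and 2160 in all MHs, a ratio of 849 after scaling (95% exact interval 235 to 7020.0, counting error only), and its level in MHLBJ was 143, 8.61 and 2.47 CPM. It was one of 2 genes with at most 3 reads in every DP and at least 30 in every MH. The other, ENSECAG00000005658, which the files list without a symbol, had 2 reads in DPs and 304 in MHs, a ratio of 120.0 (32.8 to 991). No gene showed the opposite pattern. MYH2 and ENSECAG00000005658 passed the filter only through the MHs, so their calls follow from the filter.

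Genes that respond to hormones, time of day and handling were partly lower in DPs. Of 11 genes induced by glucocorticoids 4 were lower and 0 higher, with a median of -0.96, where 5.47% of all genes were lower. FKBP5, a chaperone of the glucocorticoid receptor, had 246, 164 and 215 CPM in DPLBJ and 822, 1123 and 470.5 CPM in MHLBJ, with a log2FC of -1.95 (SE 0.39, adjusted p = 0.136). ZBTB16, a transcription factor gene, had 122, 77.4 and 14.2 CPM against 457, 378 and 351 CPM (-2.47), and GLUL (-1.09), the glutamine synthetase, was also lower. For these 3 genes the breeds did not overlap. The lower count was 8 of 11 without DPLBJ replicate 1. Of 16 clock genes PER2, NPAS2 and NR1D1 were lower, where 5.47% of all genes were. For NR1D1 the breeds overlapped, with 8, 4 and 19 reads in DPLBJ and 47, 22 and 67 in MHLBJ. The adult log2FC was 0.06 for NPAS2 and 1.80 for NR1D1, neither past the threshold. The count of lower clock genes was 6 of 17 without DPLBJ replicate 1, 5 of 17 without MHLBJ replicate 2 and 5 of 16 with no TMM scaling. PER2 had 27.2, 21.8 and 23.0 CPM against 70.8, 66.5 and 55.3 CPM, with a log2FC of -1.42 (SE 0.23, adjusted p = 0.136). The hour of sampling is not given in the sources used here, and its part in these values was not tested.

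Immediate early genes gave 5 of 23 lower and 0 higher, with KLF6 (-1.37) and NR4A3 (-1.93) among them and a list median of -0.16. The lower count was 3 of 23 without MHLBJ replicate 1. Heat shock genes gave 2 of 13 lower, CRYAB (-1.39) and HSPA1L (-1.28), and 0 higher. Both lists stand against 5.47% of all genes lower. The heat shock count was 3 of 13 without DPLBJ replicate 2, 1 of 13 without DPLBJ replicate 3 and 1 of 13 without MHLBJ replicate 3. Without MHLBJ replicate 1, 0 of 13 were lower and 1 was higher. Among 16 genes induced by low oxygen, P4HA2 (1.51), a collagen prolyl hydroxylase, the glycolysis gene ENO1 (1.105) and EGLN3 were higher and VEGFA (-1.05) and PFKFB3 (-1.002) lower. Of all genes 8.33% were higher and 5.47% lower. For ENO1 and VEGFA the breeds overlapped. The higher and lower counts were 5 and 1 of 16 without DPLBJ replicate 1 and 1 and 1 of 16 without MHLBJ replicate 1. They were 1 and 0 of 16 without MHLBJ replicate 3 and 1 and 2 of 16 with limma.

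Growth factor systems of bone were mixed. Of 29 genes of BMP and TGF-beta signalling 5 were lower in DPs and 1, TGFB3, was higher, against 5.47% and 8.33% of all genes. FST (follistatin), which binds activins, had 18.1, 11.1 and 15.3 CPM in DPLBJ and 195, 68.1 and 78.7 CPM in MHLBJ, with a log2FC of -2.94 (SE 0.48, adjusted p = 0.136). The ligand gene TGFB2 had 83.9, 64.2 and 34.5 CPM against 124, 232 and 216 CPM (-1.65), and the BMP receptor genes BMPR2 (-1.08) and BMPR1A (-1.36) were lower without overlap. The lower count was 9 of 29 without DPLBJ replicate 1, 3 of 29 without DPLBJ replicate 3, 3 of 29 without MHLBJ replicate 1, 3 of 29 without MHLBJ replicate 3 and 9 of 29 with no TMM scaling. In the insulin-like growth factor (IGF) system, INSR, the insulin receptor, had 7.92, 15.4 and 6.51 CPM against 39.4, 24.0 and 58.3 CPM, with a log2FC of -2.03 (SE 0.47, adjusted p = 0.143). STC1 (stanniocalcin), at 12.1, 4.95 and 5.00 CPM against 26.9, 31.0 and 34.1 CPM (-2.06), and the binding protein gene IGFBP3, at 18.2, 7.71 and 3.39 CPM against 20.0, 56.5 and 19.7 CPM (-1.72), were lower too. IGF2BP3, which binds IGF2 mRNA, was higher (1.80), and the other 10 of 14 tested genes of the system did not pass the threshold.

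Housekeeping lists differed by small amounts. Chaperones of the endoplasmic reticulum and their stress regulators gave 4 of 24 higher and 0 lower, against 8.33% and 5.47% of all genes. The median was 0.51. SERP1, which protects newly made membrane proteins, had 33.2, 39.8 and 39.5 CPM in DPLBJ and 20.7, 14.5 and 15.4 CPM in MHLBJ (1.15), and the transcription factor gene ATF4 172, 264 and 196 against 118, 60.2 and 50.9 CPM (1.46). SDF2L1 (2.15) and ASNS (1.56) were higher with overlap. The count was 2 of 24 without DPLBJ replicate 2, 2 of 24 without MHLBJ replicate 1, 2 of 24 without MHLBJ replicate 2, 2 of 24 without MHLBJ replicate 3, 2 of 24 with no TMM scaling and 1 of 23 with limma. In the fits that left out these libraries 7.28%, 5.12%, 6.33% and 4.82% of all genes were called higher, and 3.11% with limma. Those list counts thus lay near the shares of all genes. Of 58 ribosomal protein genes RPS2 (1.403) and RPL13 (1.17) were DEGs higher in DPs, and 50 had a positive log2FC with a median of 0.52. Without DPLBJ replicate 2, which had 130412 CPM of these genes against 52581 to 65216 CPM in the other 5 libraries, the median was 0.001. Of 53 nuclear genes of oxidative phosphorylation 0 were DEGs, with a median of 0.37. DPLBJ replicate 2 had 8215 CPM of these genes against 3887 to 4911 CPM in the other 5 libraries, and without it the median was -0.017. Of 13 mitochondrial genes of oxidative phosphorylation ND6, a subunit of complex I on the light strand, was higher (1.28).

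Of 21 genes of cholesterol synthesis CYP51A1 was higher (1.03), and of 16 genes of fatty acid oxidation HADH was lower, with 35.7, 35.4 and 34.2 CPM against 100.1, 53.4 and 77.5 CPM (-1.13). Among 14 genes of inflammation CASP1 (2.40), NLRP3 (1.94) and IL1RN (2.53) were higher, where 8.33% of all genes were. Each overlapped between breeds, with DPLBJ replicate 1 as the lowest DP. The higher count was 1 of 17 without DPLBJ replicate 2, 1 of 16 without DPLBJ replicate 3 and 1 of 15 without MHLBJ replicate 1. It was 0 of 15 without MHLBJ replicate 3 and 0 of 11 with limma. No DEG was found among 25 interferon response genes (median -0.05), 6 genes of MHC class II presentation (-0.08), 9 of MHC class I (0.31) or 11 of nerve sheath and glia (-0.47).

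Some genes that mark the fore or hind limb separated the libraries in a way that the labels do not explain, while others did not. TBX5, a transcription factor of the fore limb, had 18.0, 1.67 and 0.323 CPM in DPLBJ and 0.224, 0.134 and 0.698 CPM in MHLBJ. PITX1, a transcription factor of the hind limb, had 0.157, 6.77 and 5.81 CPM in DPLBJ and 12.9, 14.2 and 10.3 CPM in MHLBJ. DPLBJ replicate 1 thus had TBX5 and almost no PITX1, while the other 5 juvenile libraries had PITX1 and little TBX5. HOXC9, which patterns the hind part of the body axis and the hind limb, had 0, 12.5 and 6.19 CPM in DPLBJ and 13.05, 19.9 and 13.8 CPM in MHLBJ, and HOXC10 had 0, 1.67 and 2.04 CPM against 3.06, 4.59 and 2.93 CPM. TBX4, also a marker of the hind limb, did not set DPLBJ replicate 1 apart. Its level was 3.76, 3.35 and 3.55 CPM in DPLBJ and 2.09, 2.50 and 1.49 CPM in MHLBJ. HOXD10 was highest in DPLBJ replicate 1, with 50.0, 5.09 and 12.7 CPM against 20.1, 24.7 and 11.3 CPM.

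The adult DPs lay near DPLBJ replicate 1 in TBX5 and PITX1, with 11.5, 12.8 and 24.3 CPM of TBX5 and 0.114, 0.467 and 0.874 CPM of PITX1. The adult MHs had 0.174, 1.50 and 1.85 CPM of TBX5 and 4.79, 12.4 and 7.13 CPM of PITX1. Which limb a sample came from is not given in the sources used here, and the part of limb in the differences between breeds was not tested. In the juvenile test TBX5 was a DEG with a log2FC of 4.19 (SE 1.48, adjusted p = 0.222) and 1.44 when DPLBJ replicate 1 was left out, and HOXC6 (-1.77) and MEIS2 (-2.45) were lower. HOXD9 was higher without overlap, with 13.5, 7.35 and 8.28 CPM in DPLBJ and 2.98, 4.55 and 2.51 CPM in MHLBJ (1.53).

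**Figure D4:**
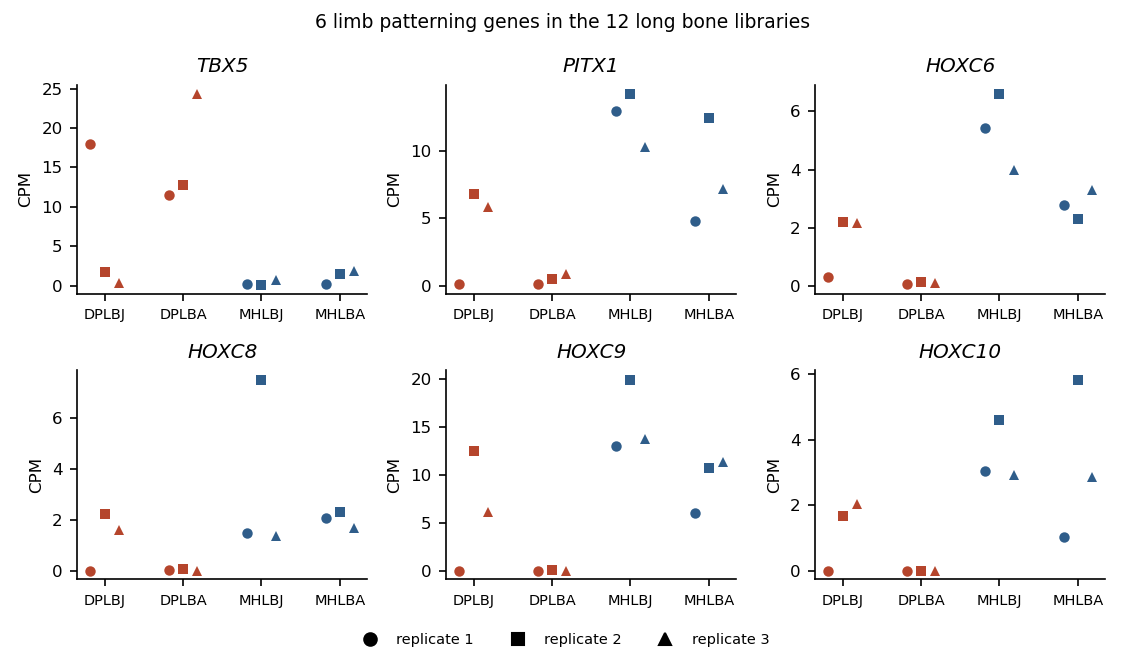
CPM of 6 limb patterning genes in the 12 long bone libraries, DPs in red and MHs in blue, with juveniles (DPLBJ, MHLBJ) and adults (DPLBA, MHLBA) side by side. DPLBJ replicate 1 and the 3 adult DPs have TBX5 at 11.5 to 24.3 CPM and PITX1 below 1 CPM, and DPLBJ replicates 2 and 3 lie nearer the MHs.

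Of the 5 genes with the highest CPM, DPs and MHs shared MT-CO1, SPP1, COL1A2 and the gene listed as FAM117A. MT-CO1, a mitochondrial gene of complex IV, had 15214, 21509 and 18651 CPM in DPLBJ and 14019, 20717 and 13413 CPM in MHLBJ (0.20, and -0.01 without TMM scaling). SPP1 (osteopontin) had 6485, 7192 and 13663 CPM against 7480.0, 17767 and 4068 CPM (-0.10), with no detectable difference beside this spread. The collagen gene COL1A2 had 66885, 6714 and 28299 CPM against 4807, 12729 and 4744 CPM. It was a DEG higher in DPs, with a log2FC of 2.19 (SE 0.87, adjusted p = 0.257) and overlap in DPLBJ replicate 2, and was not called without DPLBJ replicate 1 (1.23), DPLBJ replicate 3 (2.31), MHLBJ replicate 1 (1.96) or MHLBJ replicate 3 (1.95), nor with limma. The gene listed as FAM117A had 76996, 7821 and 28290.0 CPM against 7274, 21594 and 7439 CPM and was not a DEG (1.64). Whether that symbol is right for the identifier is uncertain. ENSECAG00000007258, which has no symbol, had 16.3, 3239.7 and 19429 CPM against 510.0, 1539.5 and 119 CPM and did not pass the threshold. In all, 138 DEGs higher and 98 lower in DPs had no symbol of their own. Those with the smallest P were ENSECAG00000019930 (2.27) and ENSECAG00000026903 (4.28) among the higher and ENSECAG00000024906 (-3.21) and ENSECAG00000019960 (-3.59) among the lower.

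The adult libraries, which come from other animals, showed the same direction for most juvenile DEGs. Of 1131 juvenile DEGs higher in DPs that were tested in adults, 619 (54.7%) were also DEGs higher in adult DPs, where 10.3% of all genes were, and 5 were DEGs in the opposite direction. Of 731 lower ones, 315 (43.1%) were DEGs lower in adult DPs, where 8.03% of all genes were, and 2 the opposite. The median adult log2FC was 1.44 for the higher and -1.09 for the lower genes, against -0.03 for all genes. PCDH9 was -2.38 in adults, TEAD1 -1.70, BCL2 -1.68, HIST1H1C 3.03 and LOXL3 1.72, all past the threshold. For NUCB2 (-0.88), RASSF4 (-0.56), LPL (0.30) and FST (0.13) the adults did not pass it. Some limb markers, TBX5 and PITX1 among them, differed between the adult breeds as well, and their part in the shared calls was not tested.

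**Figure D5:**
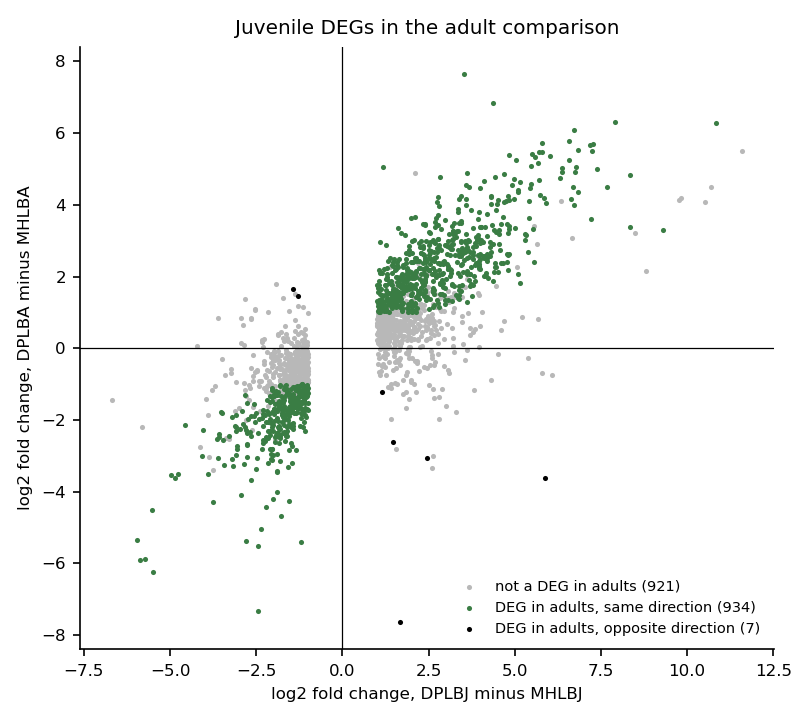
Log2 fold change of the juvenile DEGs (DPLBJ minus MHLBJ) against that of the same genes in adults (DPLBA minus MHLBA), green where the adult call had the same direction. Of 1131 higher genes 619, and of 731 lower genes 315, were called the same way in adults.

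Whether the breeds differed more at one stage was tested as an interaction over the 12 libraries. The threshold for DEGs was passed by the interaction in 615 of 14735 genes (4.17%), and 660 genes (4.48%) had a P under 0.05. None had an adjusted p under 0.05 and the lowest was 0.971, so no single gene was shown to differ between the stages. Leaving out DPLBJ replicate 1 gave 1137 genes, and leaving out DPLBA replicate 3 gave 406. Genes with a small P among those passing were GCH1, the first enzyme of tetrahydrobiopterin synthesis (0.37 in juveniles and -2.36 in adults), the phagocytic receptor gene MERTK (-0.68 in juveniles and 1.05 in adults), STAC2 (-1.44 in juveniles and 1.64 in adults) and the calcium channel gene CACNA1B (-2.82 in juveniles and 1.36 in adults). CACNA1B had 1.57, 5.17 and 1.94 CPM in DPLBJ and 28.2, 19.9 and 13.1 CPM in MHLBJ.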

How the data were processed

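The data are RNA-seq libraries of ground long bone epiphysis, rRNA-depleted and directional. The deposited whole-number read counts per gene were made by the authors, whose methods name Salmon and the horse genome EquCab 3.0, while the submitters' processing notes name TopHat2. The authors also deposited RPKM values, which scale reads by gene length and library size and were used for levels per length and in the limma alternative. Whether counting used strand is not given in the sources used here, so reads of overlapping or antisense genes cannot be told apart. Samples were grouped by their titles, 3 animals a group.

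Counts were tested with edgeR 4.0.16 in R 4.3.3 (filterByExpr with a minimum count of 10, TMM, quasi-likelihood test, Benjamini-Hochberg adjusted p over all tested genes), each stage apart and, for the interaction, together. DESeq2 1.42.0 and limma 3.58.1 gave alternatives. With 3 against 3 an exact permutation test cannot go below 0.1. The code was tested on simulated data. Gene lists and groups were chosen with earlier results of these data known. Named genes were the 12 with the smallest P in each direction, up to 4 DEGs a list that the study does not name, the 5 with the highest CPM in each breed, genes near 0 reads in one breed and the 5 leading interaction genes. Any other gene was named after its values were seen. A few genes that these rules picked are not reported here.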

Additional observations from a re-analysis of the deposited data

How the results depend on the processing

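The 1899 juvenile DEGs became 1236 with limma on log2(RPKM + 1), 745 at a P under 0.01, 0 at an adjusted p under 0.05, and 1194 to 3087 when 1 library was left out. The adult count of 2580 fell to 315 at an adjusted p under 0.05. The interaction count of 615 was 967 with no low-count filter, 0 at an adjusted p under 0.05, and 406 to 1137 when 1 library was left out. Replicate numbers were shared by the breeds but did not pair the animals: the correlations of same-numbered libraries' deviations were 0.181, 0.0912 and -0.141. Under the replicate block, the juvenile DEGs numbered 1714. SPP1, at -0.10 on the log2 scale, was 0.048 under that block and -0.51 to 0.64 over the fits that left out a library, with values above 0 in the absence of DPLBJ replicate 1 (0.086), DPLBJ replicate 2 (0.044) or MHLBJ replicate 2 (0.64). MT-CO1 was -0.0084 with no scaling factors. The cause of these moves was not tested. Of the named genes, 36 lost their call without MHLBJ replicate 3, 34 without MHLBJ replicate 1 and 25 with limma on log2(RPKM + 1). Low counts limit ICAM5, SNX22 and the untested list members.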
